A study of Mus musculus with 24 samples.

Results

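Messenger RNA of 9 genes for the matrix that radial glial cells and their fibres rest on, and for the receptors that bind it, was followed in the archicortex of mouse embryos. They were the genes for fibronectin (Fn1), agrin (Agrn), the laminin chains beta 1 and gamma 1 (Lamb1, Lamc1), dystroglycan (Dag1) and the integrin subunits beta 1, alpha 5, alpha 6 and alpha V (Itgb1, Itga5, Itga6, Itgav). They were picked by name from a table of 51912 genes, and Agrn was picked because its level at E13.5 had moved differently in the Sox1Cre and NestinCre lines. All 9 were among the 16454 genes that passed the filter on low values, which asked for 10 or more in 4 or more of the 24 libraries, and each was far above that limit in every library. The values that chose them are therefore those of E13.5, which are described below without a test, while the rule for choosing them uses no E12.5 change, and the E12.5 mutants were tested against their controls, with earlier results of these data known.

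The archicortex, the medial edge of the cerebral cortex that forms the dentate gyrus and the hippocampus, was dissected from embryos of a mixed C57BL/6J and MF1 background, and 24 libraries in 6 groups of 4 were sequenced. In the Sox1Cre line they were Sox9fl/fl;Sox1Cre mutants and Sox9+/+;Sox1Cre controls at E12.5 and at E13.5. In the NestinCre line they were Sox9fl/fl;NestinCre mutants and Sox9+/+;NestinCre controls at E13.5. Every group carried a Cre transgene or knock-in, so the controls differ from the mutants in the floxed Sox9 alleles and not in Cre. Sox1Cre recombines throughout the early neural plate, whereas deletion by NestinCre starts later and largely spares the cortical hem, so that the lines differ both in time and in place of deletion. The label names carry 1 code for all Sox1Cre libraries and another for all NestinCre libraries, and what that code stands for cannot be told apart from the line. Nothing in the labels says whether each library came from a separate embryo, so p-values measure only the spread between libraries. Reads assigned to genes ranged from 16163560 to 49445219 per library, and values are normalized counts, the reads of a gene divided by 1 size factor per library.

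Radial glial cells attach by an end-foot to the basement membrane under the meninges. Laminins, which are trimers of an alpha, a beta and a gamma chain, polymerize in that membrane, agrin is a heparan sulphate proteoglycan that links laminin to dystroglycan, and fibronectin is assembled into fibrils by integrins. Integrins are pairs of an alpha and a beta subunit that join this matrix to the actin cytoskeleton: alpha 5 with beta 1 is the classical fibronectin receptor, alpha 6 with beta 1 binds laminin, and alpha V subunits bind ligands with an RGD motif such as fibronectin and vitronectin. Meninges and blood vessels make much of the same matrix, so bulk tissue holds all of these sources together, and in such samples fewer cells of a type and less RNA per cell cannot be told apart.

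The deleted gene was checked first. Sox9, a transcription factor of neural progenitors, was lower in all 3 mutant groups, and no mutant library reached a control library of its own age and line. At E12.5 it read 2785, 1733, 2593 and 1928 normalized counts in the mutants and 4391, 5265, 4237 and 4194 in the controls. This is a log2 change of -1.02, with a 95% confidence interval of -1.27 to -0.78 (limma, adjusted p = 6.28e-05). The changes at E13.5 were -0.74 in the Sox1Cre line (adjusted p = 0.0021, limma) and -0.71 in the NestinCre line (adjusted p = 0.0297, limma). The NestinCre change stayed between -0.77 and -0.67 when 1 library was left out, but passed in only 1 of these 8 fits (limma, highest adjusted p = 0.110). RNA from the exons left after recombination, and from cells without Cre, is counted too. Archicortex markers were present in every library: of 8 such genes the highest was Lhx2 (mean 15922 normalized counts) and the lowest Wnt3a (mean 1411), and none was at 0 anywhere.

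Libraries A1, A10 and A19 stood apart from the rest of their groups and bear on several members. The E13.5 Sox1Cre mutant A1, the E12.5 Sox1Cre mutant A10 and the NestinCre mutant A19 had the lowest endothelium and pericyte marker sums of their groups, at 6414, 7390 and 8873 normalized counts over 12 genes, against 12504 to 15903, 13361 to 15267 and 12631 to 14327 in the other libraries of each group. Their sums over 12 markers of meninges and head mesenchyme were also the lowest of each group, at 19629, 35092 and 27396. Library A1 had 7762 normalized counts over 6 choroid plexus markers, where the other E13.5 Sox1Cre mutants had 65079 to 88404. No marker of endothelium, meninges, erythroid cells, choroid plexus or microglia was at 0 in any library. The most abundant were Kdr (mean 3554), Col3a1 (15236), Hbb-y (53674), Ttr (30512) and Csf1r (680). None of the 12, 12, 9, 6 and 8 genes of these lists passed the test (limma, adjusted p under 0.05) in any mutant group against its controls. The members were not equally low in A1, A10 and A19. Relative to the mean of the other 3 libraries of the group, Lamb1 was at 0.484, 0.633 and 0.706, Itga5 at 0.710, 0.738 and 0.754, and Lamc1 at 0.610, 0.83 and 0.824. Agrn was at 0.886, 0.871 and 0.907 in the same libraries, Dag1 at 0.818, 0.947 and 0.952, and Itgb1 at 0.760, 0.926 and 0.890. Fn1 read 1.02, 0.813 and 0.905, Itga6 1.06, 1.05 and 0.972, and Itgav 1.05, 0.892 and 0.972. The part of vessels and meninges in these values was not tested. Most results of the 9 genes that rest on the 3 libraries are given with and without them. Changes of other named genes are mostly given over all libraries only.

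**Figure D1:**
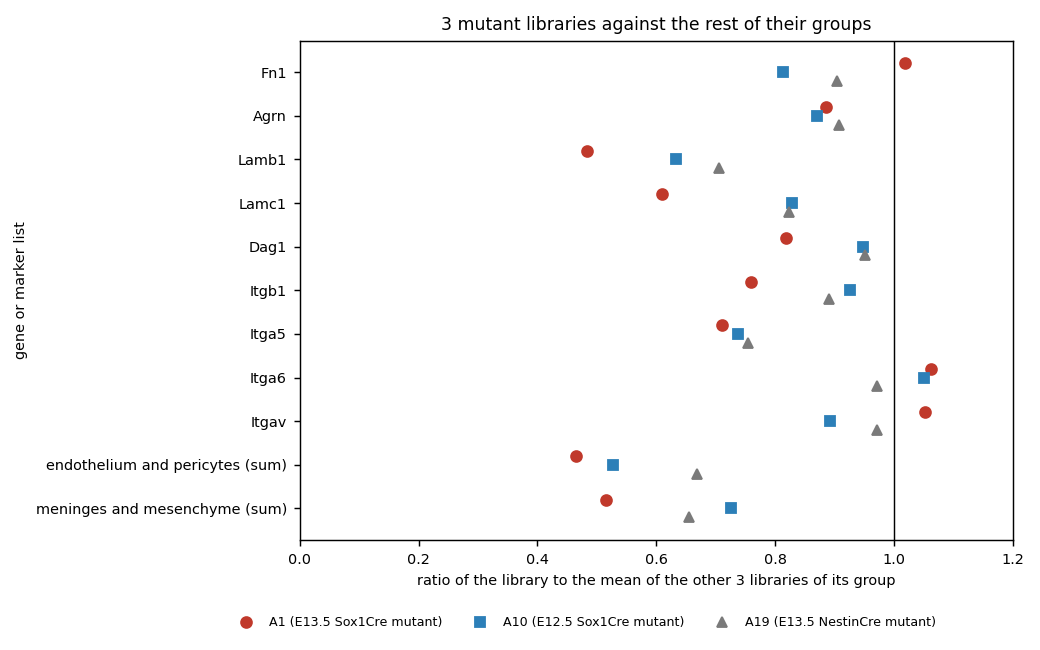
Ratio of the normalized count in libraries A1, A10 and A19 to the mean of the other 3 libraries of the same group (horizontal axis, a ratio with no unit), for the 9 genes and for 2 summed marker lists (vertical axis). Lamb1 and Itga5 lie below 0.8 in all 3 libraries, as do both marker sums, while Itga6 lies between 0.97 and 1.1.

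Sex was unevenly spread over the groups. By Xist, a transcript of the inactive X chromosome, all 4 Sox1Cre controls at E12.5 read as female and all 4 at E13.5 as male, so that in these controls age and sex cannot be told apart. Mutants of the Sox1Cre line held 2 libraries of each kind at both ages, those of the NestinCre line likewise, and the NestinCre controls 1 high and 3 low. Xist ranged from 0 to 6.41 normalized counts in the low libraries and from 3526 to 5934 in the high ones.

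Levels can be compared between genes only per length of exon. Over the 24 libraries Fn1 was the highest member, with a mean level of 2097 ± 284 normalized counts per kb (SD, n = 24), followed by Itgb1 with 1724 ± 114. Agrn (1217 ± 224) and Dag1 (1189 ± 95.6) lay next to each other within their spread, and Lamc1 followed with 877 ± 135. Lamb1 (420 ± 66.4) and Itga6 (404 ± 28.2) did not differ beyond their spread either, and Itga5 (242 ± 31.6) and Itgav (139 ± 9.68) were the lowest. Among laminin chains outside the 9 genes, Lamb2 had 383 ± 59.6 per kb and Lama1, the most abundant alpha chain, 292 ± 66.3. Among the receptors, each integrin alpha subunit was thus several times lower per kb than beta 1, the partner they share. The order over all libraries did not hold in every group: in the E13.5 Sox1Cre mutants Itgb1 (mean 1742 per kb) was above Fn1 (1687), and Dag1 (1092) above Agrn (873).

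**Figure D2:**
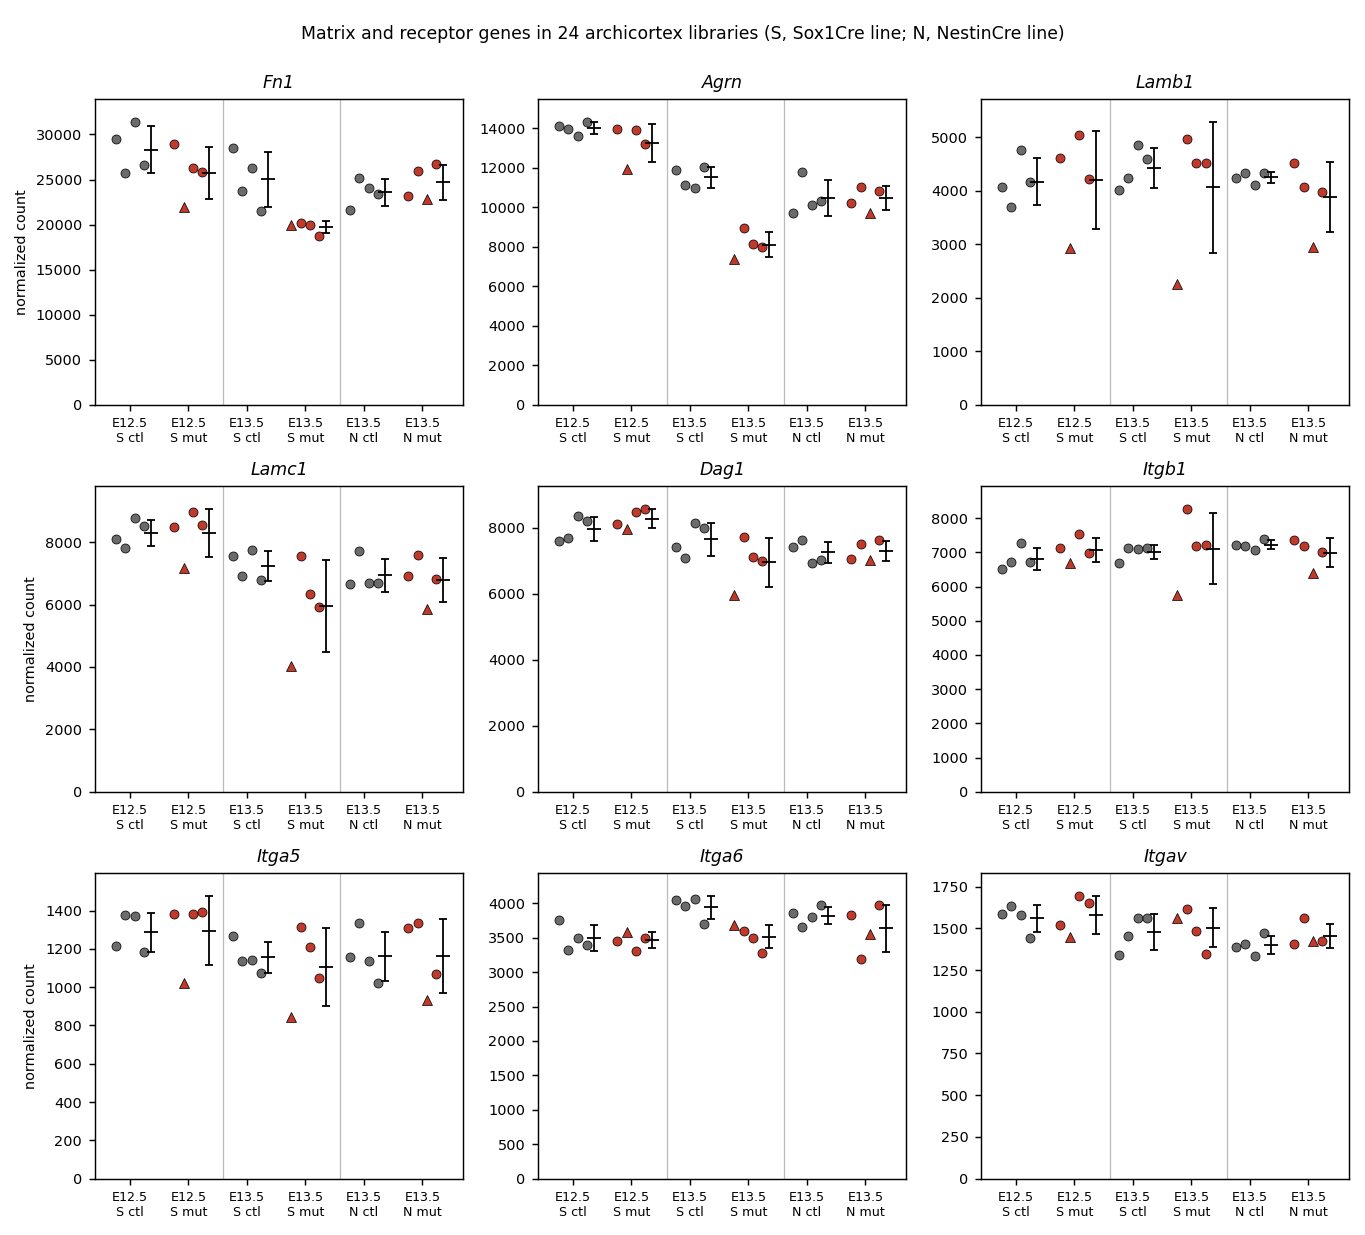
Normalized count (vertical axis, starting at 0) of each of the 9 genes in each of the 24 libraries, by group on the horizontal axis; controls are grey, mutants red, bars give the mean ± SD of 4 libraries, and triangles mark A1, A10 and A19. The 4 E13.5 Sox1Cre mutants lie below all 4 of their controls for Agrn, Fn1 and Itga6.

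Agrn (ENSMUSG00000041936) lies on GRCm38 chr4:156165290-156197488, minus strand. It has 2 annotated starts in RefSeq (GRCm38.p6), 11229 bases apart, and the 250 bases before each are shown because Agrn is the member whose RNA differed most between the Cre lines and SOX factors are known to bind a short shared core. The first window lies outside any annotated gene and the second within an Agrn intron, neither holding an annotated exon. Capitals mark CTTTGT, which reads as the SOX-type core ACAAAG on the opposite strand.
Agrn chr4:156197489-156197738: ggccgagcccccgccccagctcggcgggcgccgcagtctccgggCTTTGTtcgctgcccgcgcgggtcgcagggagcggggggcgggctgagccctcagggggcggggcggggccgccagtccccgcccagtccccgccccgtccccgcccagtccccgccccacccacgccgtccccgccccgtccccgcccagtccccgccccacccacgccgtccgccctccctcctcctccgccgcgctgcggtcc
Agrn chr4:156186260-156186509: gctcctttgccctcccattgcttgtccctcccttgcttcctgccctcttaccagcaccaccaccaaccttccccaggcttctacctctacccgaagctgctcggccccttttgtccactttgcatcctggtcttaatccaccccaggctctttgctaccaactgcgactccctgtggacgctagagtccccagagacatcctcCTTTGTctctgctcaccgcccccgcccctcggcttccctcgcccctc
The matches begin 206 and 47 bases before the starts. ACAAAG and ACAATG were searched on both strands, and 25.2% of the 32851 mouse starts in the table hold at least 1 of them in a window of this length (16.5% ACAAAG, 10.7% ACAATG), so the match is a description and no sign of binding. Of the 8 starts of the 6 members with an entry, 3 had a match, the third being in Itgb1, 85 bases before its start. The first Agrn window is 83.6% G and C, a value that 0.320% of all starts reach (median 52.4%), and the second is 60.8%.

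In the E13.5 Sox1Cre mutants, Agrn read 7389, 8934, 8138 and 7961 normalized counts in A1 to A4, and in their controls A5 to A8 it read 11894, 11116, 10990 and 12053. The highest mutant was well below the lowest control. The group means were 8106 ± 638 and 11513 ± 538 (SD, n = 4 each), a log2 change of -0.51 or -29.7%. Of the NestinCre libraries, the mutants A17 to A20 read 10221, 11025, 9704 and 10843, and the controls A21 to A24 read 9683, 11796, 10113 and 10322. These groups overlapped throughout, with means of 10448 ± 604 and 10478 ± 918 and a log2 change of -0.0020. The change in the Sox1Cre line minus that in the NestinCre line was -0.51 on the log2 scale. Without A1, A10 and A19 the changes were -0.47 and 0.03, and in Xist-low libraries alone they were -0.58 and -0.09. These contrasts chose Agrn, so the values are a description. As background, 0.924% of all genes tested passed in the Sox1Cre line at E13.5, 0.0669% in the NestinCre line and 0.0425% in the difference between them (limma, adjusted p under 0.05).

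At E12.5 Agrn was higher than at E13.5 and the genotypes overlapped. The controls A13 to A16 read 14090, 13952, 13605 and 14319 normalized counts, and the mutants A9 to A12 read 13982, 11927, 13906 and 13219. The means were 13991 ± 299 and 13258 ± 951 (SD, n = 4 each). The log2 change was -0.08, with a 95% interval of -0.22 to 0.06 (limma, adjusted p = 0.621; exact permutation test, two-sided p = 0.171). In percent this interval runs from -13.9 to 3.9. The lowest mutant was A10, and without A1, A10 and A19 the change was -0.03. In Xist-high libraries alone it was -0.12. The E13.5 change minus the E12.5 change was -0.43 (log2), which was not tested because the E13.5 change chose the gene.

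Agrn thus had its highest mean level in the E12.5 controls, followed by the E12.5 mutants, the E13.5 Sox1Cre controls, the NestinCre controls, the NestinCre mutants and, last, the E13.5 Sox1Cre mutants. Neighbours in this order overlapped at every step but the last. From E12.5 to E13.5 the level changed by -0.28 (log2) in Sox1Cre controls and by -0.71 in Sox1Cre mutants, and at neither genotype did the ages overlap. Among the Sox1Cre mutants the change over this day was -0.83 in the Xist-low libraries and -0.59 in the Xist-high libraries. Both age comparisons share the E13.5 libraries that chose the gene and are given without a test.

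Fibronectin (Fn1, ENSMUSG00000026193, chr1:71585520-71653200, minus strand) is the provisional matrix protein bound by integrin alpha 5 beta 1. In the E13.5 Sox1Cre mutants it read 20001, 20213, 19914 and 18733 normalized counts, a narrow range, and in the controls 28529, 23764, 26321 and 21454. All 4 mutants lay below all 4 controls. The means were 19715 ± 667 and 25017 ± 3072 (SD, n = 4 each), a log2 change of -0.34 or -20.8%, and leaving out A1, A10 and A19 also gave -0.34, while Xist-low libraries alone gave -0.36. The NestinCre mutants read 23178, 25995, 22888 and 26738 and their controls 21611, 25202, 24022 and 23419, which overlapped, and the change was 0.07. The difference between the lines was -0.40 (log2), a description for the same reason as for Agrn.

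At E12.5 Fn1 read 29514, 25696, 31399 and 26617 normalized counts in the controls and 28906, 21955, 26270 and 25865 in the mutants. The mutants overlapped the controls, and the lowest value was that of A10. The log2 change was -0.14 (95% interval -0.32 to 0.05; limma, adjusted p = 0.519; exact permutation test, two-sided p = 0.229), -0.06 without A1, A10 and A19 and -0.23 in Xist-high libraries alone. Over the following day Fn1 changed by -0.18 in controls and by -0.38 in mutants, again described only. The order of the group means began with the E12.5 controls and ended with the E13.5 Sox1Cre mutants, as for Agrn, and only the last step was free of overlap. An antisense gene, Apol7d, overlaps an Fn1 exon and held at most 0.069% of the Fn1 value.

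**Figure D3:**
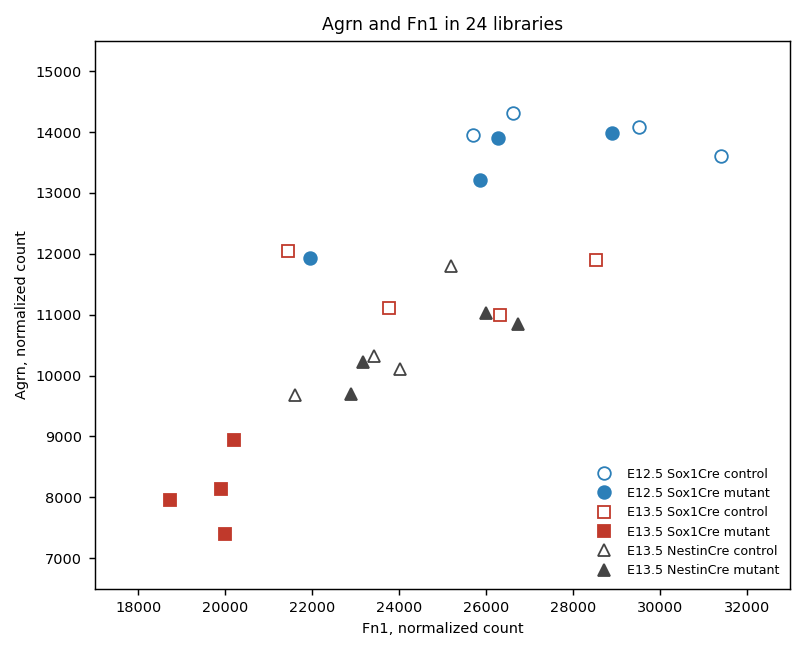
Normalized counts of Fn1 (horizontal axis) and Agrn (vertical axis) in the 24 libraries. Colours and shapes give line and age, open symbols controls and filled symbols mutants, and neither axis starts at 0. The 4 E13.5 Sox1Cre mutants lie at the lower left, at no more than 8934 for Agrn and 20213 for Fn1. At the top lie 7 of the 8 E12.5 libraries, at 13219 or more for Agrn, the exception being A10 (11927).

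Across the 24 libraries Agrn and Fn1 had a Pearson r of 0.82 (log2 values), as a description of libraries that share groups, depth and dissection. By the same measure Agrn went with Lamc1 (0.841), Dag1 (0.781) and Itga5 (0.592), less with Itgav (0.362) and Lamb1 (0.294), and not with Itgb1 (0.036), Itga6 (-0.156) or Sox9 (-0.011). Of 11830 genes with a mean of at least 100, those most like Agrn were Gprc5b (r = 0.911), Igfbp5 (0.898) and Pcdh18 (0.896). Gprc5b encodes an orphan G protein-coupled receptor, Igfbp5 a binding protein for insulin-like growth factors and Pcdh18 a protocadherin. Their mean levels in E13.5 Sox1Cre mutants and controls were 936 and 1264, 7451 and 10210, and 1727 and 2289 normalized counts. The genes most like Fn1 were Pcdh18 (0.873), Nup214, a nuclear pore component (0.843), and Prpf8, a splicing factor (0.840).

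The laminin chains Lamc1 and Lamb1 are described singly, and a difference between them was not tested. Lamc1 (ENSMUSG00000026478, chr1:153218922-153332786, minus strand), the gamma chain of most laminins, read 4027, 7561, 6339 and 5913 normalized counts in the E13.5 Sox1Cre mutants and 7563, 6906, 7751 and 6778 in the controls. A1 was far below every other library, and the groups overlapped through A2. The log2 change of -0.32 became -0.14 without A1, A10 and A19 and -0.57 in Xist-low libraries alone. The NestinCre line changed by -0.03. At E12.5 the mutants (8481, 7187, 8969 and 8563) and the controls (8107, 7816, 8772 and 8518) overlapped, with a log2 change of -0.0041 (95% interval -0.27 to 0.26; limma, adjusted p = 0.992; exact permutation p = 0.971).

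Lamb1 (ENSMUSG00000002900, chr12:31265234-31329644, plus strand) is the beta chain that pairs with it in laminin trimers of the embryo. Its E13.5 Sox1Cre mutants read 2259, 4961, 4519 and 4516 normalized counts and their controls 4017, 4243, 4854 and 4587. Apart from A1 the mutants lay within or above the controls. The change of -0.18 (log2) turned to 0.08 without A1, A10 and A19, and in the NestinCre line -0.15 became -0.022. In Xist-low libraries alone these changes were -0.47 and -0.24. At E12.5 the mutants read 4615, 2926, 5043 and 4213 and the controls 4076, 3694, 4761 and 4153, and the lowest of them was A10. The change there was -0.013 (95% interval -0.41 to 0.38; limma, adjusted p = 0.985; exact permutation p = 0.943), or 0.15 without the 3 libraries. For Lamb1 the sign of the E13.5 Sox1Cre change, and most of the size of the NestinCre one, thus rested on libraries that were also low in vessel and meningeal markers, whose part was not tested.

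Among the receptors, dystroglycan (Dag1, ENSMUSG00000039952, chr9:108204634-108263958, minus strand), which binds laminin and agrin through its sugar chains, read 5950, 7714, 7121 and 6991 normalized counts in the E13.5 Sox1Cre mutants and 7397, 7065, 8134 and 7991 in the controls. The groups overlapped, and the log2 change was -0.14, or -0.07 without A1, A10 and A19 and -0.24 in Xist-low libraries alone. The NestinCre value was 0.0095. At E12.5 it was 0.06 (95% interval -0.07 to 0.19; limma, adjusted p = 0.738; exact permutation p = 0.229).

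Integrin beta 1 (Itgb1, ENSMUSG00000025809, chr8:128685654-128733200, plus strand), the partner of alpha 5, alpha 6 and alpha V, showed log2 changes of 0.0073 in the E13.5 Sox1Cre line and -0.05 in the NestinCre line. Without A1, A10 and A19 these were 0.11 and -0.0064, and in Xist-low libraries alone -0.12 and -0.08. At E12.5 it changed by 0.06 (95% interval -0.09 to 0.21; limma, adjusted p = 0.782; exact permutation p = 0.314). Its library values ran from 5746 in A1 to 8273 in A2, both of the same mutant group. The fibronectin receptor subunit alpha 5 (Itga5, ENSMUSG00000000555, chr15:103344286-103366763, minus strand) changed by -0.08, -0.010 and, at E12.5, 0.0010 (95% interval -0.27 to 0.27; limma, adjusted p = 0.998; exact permutation p = 0.971). Its lowest values in the mutant groups were 845 in A1, 1023 in A10 and 933 in A19, and without these libraries the 3 changes were 0.04, 0.09 and 0.11. Xist-low libraries alone gave -0.29 and -0.08 at E13.5, and Xist-high libraries -0.11 at E12.5.

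The laminin-binding subunit alpha 6 (Itga6, ENSMUSG00000027111, chr2:71745616-71858416, plus strand) was the only receptor whose E13.5 Sox1Cre mutants and controls did not overlap. The mutants read 3677, 3601, 3501 and 3283 normalized counts and the controls 4043, 3956, 4066 and 3703. The gap between A1, the highest mutant, and A8, the lowest control, was small beside the range within either group. The log2 change was -0.17 or -10.8%, and -0.19 without A1, A10 and A19. The NestinCre groups overlapped (3824, 3190, 3559 and 3970 against 3861, 3661, 3794 and 3968), with a change of -0.08. At E12.5 the change was -0.013 (95% interval -0.13 to 0.11; limma, adjusted p = 0.945; exact permutation p = 0.771). Integrin alpha V (Itgav, ENSMUSG00000027087, chr2:83724397-83806916, plus strand) changed by 0.02 in the E13.5 Sox1Cre line, 0.05 in the NestinCre line and 0.015 at E12.5 (95% interval -0.12 to 0.15; limma, adjusted p = 0.943; exact permutation p = 0.8). A gene antisense to Itgav, Gm13684, held at most 0.232% of its value.

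At E12.5, 0 of the 9 genes passed the test over all genes tested with limma, edgeR or DESeq2, and 0 had an unadjusted p under 0.05 in limma. Since 0.723% of all 16454 genes passed, a count of 0 among 9 is no result particular to them. In 0 of the 9 were the E12.5 genotypes free of overlap, against 10.3% of all genes. Their median log2 change was -0.0041, beside 0.0020 over all genes tested. The 95% intervals of single members at E12.5 reached from -0.41 to 0.38 at the widest (Lamb1) and from -0.13 to 0.11 at the narrowest (Itga6).

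At E13.5 in the Sox1Cre line, 7 of 9 members were below 0 with a median of -0.17, beside -0.0046 over all genes tested. Without A1, A10 and A19, 5 of 9 were below 0 and the median was -0.07, while in Xist-low libraries alone, where A1 is 1 of the 2 mutants, 9 of 9 were below 0 and the median was -0.29. No marker of other cells passed, but 11 of 12 meninges markers were below 0 (median -0.24) and 10 of 12 of endothelium and pericytes (median -0.23), and without the 3 libraries these medians were -0.041 and 0.06. Below 0 were also 5 of 9 erythroid markers (median -0.023), 3 of 6 of choroid plexus (-0.016) and 6 of 8 of microglia (-0.045). The part of these cells in the members' values was not tested. For Agrn, Fn1 and Itga6 the mutants lay below all controls, which holds for 2.6% of all genes. The NestinCre line had a median of -0.010, beside -0.0021 over all genes, and of 0.03 without the 3 libraries. In its Xist-low libraries alone 9 of 9 were below 0, with a median of -0.08. The choice of the genes drew on these comparisons, and nothing is read from the counts.

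**Figure D4:**
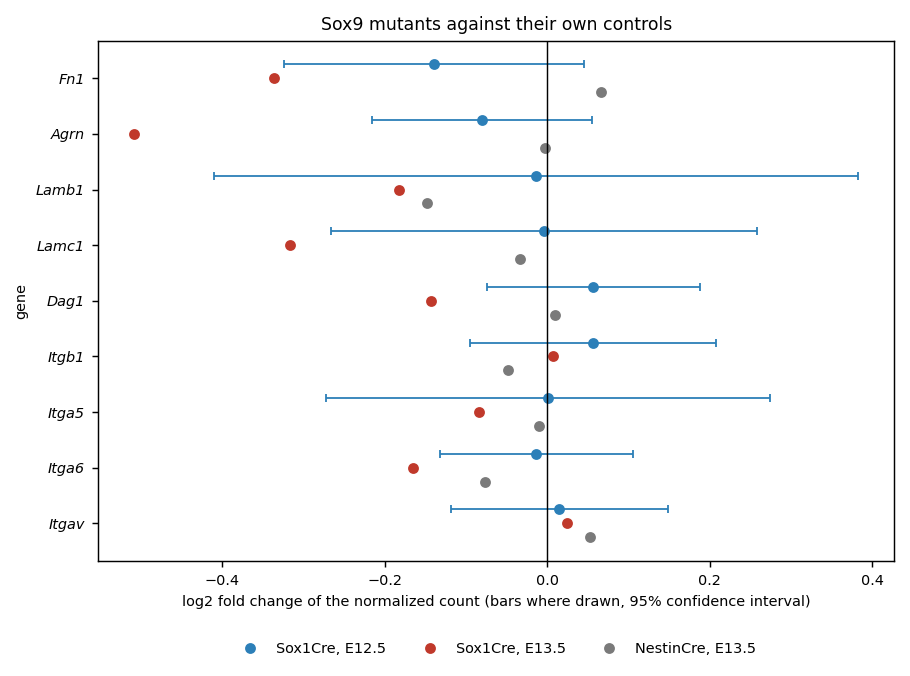
Log2 change of mutants against their own controls (horizontal axis) for the 9 genes in the E12.5 Sox1Cre, E13.5 Sox1Cre and E13.5 NestinCre comparisons; bars are 95% confidence intervals and are drawn only for E12.5, since the E13.5 values chose the genes. Agrn (-0.51), Fn1 (-0.34) and Lamc1 (-0.32) lie farthest below 0 at E13.5 in the Sox1Cre line, and all 9 intervals at E12.5 include 0.

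Over the day from E12.5 to E13.5, the means of several members were lower at E13.5 in the Sox1Cre mutants. These comparisons share the E13.5 libraries with the choice of the genes, so the members' values are a description without a test. In mutants Lamc1 read a log2 change of -0.51, and 3 of 4 E13.5 mutants were below all E12.5 mutants. Without A1, A10 and A19 its change was -0.40, in the Xist-high libraries alone -0.21 and in the Xist-low libraries alone -0.80. Dag1 read -0.26 with no overlap between the ages, -0.21 without the 3 libraries, -0.15 in the Xist-high libraries and -0.37 in the Xist-low libraries. The remaining changes in mutants were -0.08 for Lamb1, -0.0048 for Itgb1, -0.24 for Itga5, 0.02 for Itga6 and -0.07 for Itgav. Those of Lamb1 and Itga5 read -0.47 and -0.56 in Xist-low and 0.30 and 0.08 in Xist-high libraries. The Xist-low E13.5 mutants include A1 (Lamb1 2259, Itga5 845 normalized counts), and the Xist-high E12.5 mutants include A10 (Lamb1 2926, Itga5 1023). Xist class and these low libraries therefore cannot be told apart here, and the part of each was not tested. For Agrn, Fn1 and Dag1, 3 of the 9, the E13.5 mutants lay below all E12.5 mutants, against 10.8% of all genes.

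In controls, where age and sex coincide, Itga6 read 0.17 and Lamc1 -0.20. Lamb1 changed by 0.09 there, Dag1 by -0.06, Itgb1 by 0.04, Itga5 by -0.15 and Itgav by -0.08. The ages were free of overlap with lower values at E13.5 for 2 of 9 members, Agrn and Lamc1, against 8.74% of all genes. The change with age was not tested for a difference between genotypes. Its size in mutants minus controls, which equals the E13.5 genotype change minus the E12.5 one, was -0.43 for Agrn, -0.31 for Lamc1, -0.20 for Dag1 and for Fn1, -0.17 for Lamb1, -0.15 for Itga6, -0.08 for Itga5, -0.05 for Itgb1 and 0.0096 for Itgav.

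**Figure D5:**
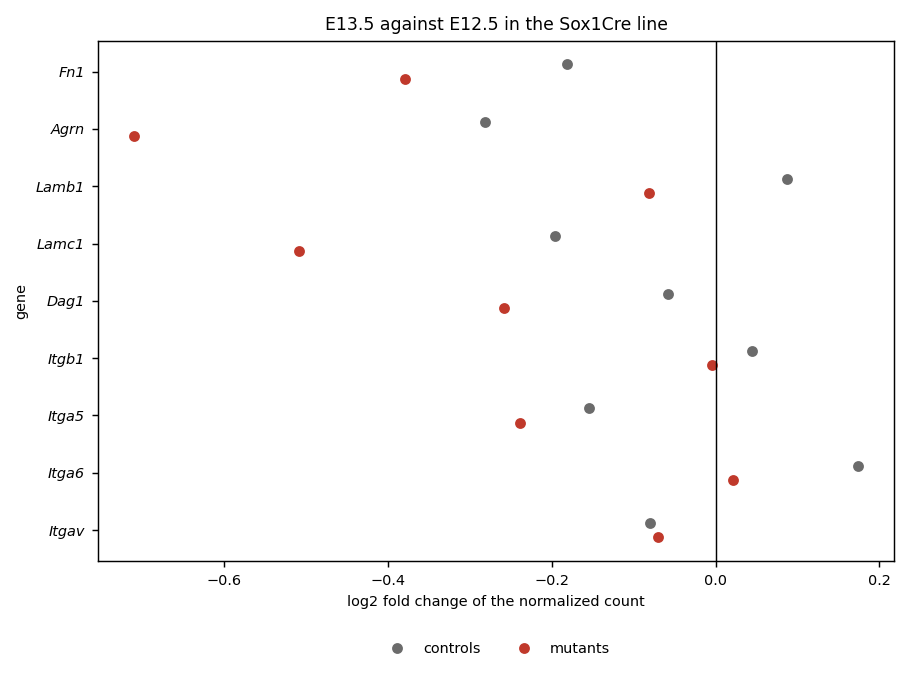
Log2 change from E12.5 to E13.5 (horizontal axis) of the 9 genes in Sox1Cre controls (grey) and mutants (red); no error bars are drawn, since the E13.5 libraries took part in the choice of the genes. Agrn lies at -0.28 and -0.71 and Itgb1 near 0 in both genotypes.

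The rest of the pathway was read from 7 lists of 114 genes, of which 108 were tested. At E12.5, 1 of the 108 passed, against 0.723% of all genes (7 had an unadjusted p under 0.05, edgeR called 1 and DESeq2 2), with a median log2 change of 0.05. It was Dmd, which encodes dystrophin, the actin-binding partner of the dystroglycan complex, whose mean was 736 ± 163 normalized counts for mutants, against 1223 ± 143 for controls (SD, n = 4 each). The mutants (512 to 870) did not overlap the controls (1138 to 1436), and the log2 change was -0.76 (limma, adjusted p = 0.0084). The adjusted p was 0.0784 when limma was fitted to the libraries of this comparison alone and 0.0504 without the control A13. In the other 6 lists no gene passed, and the most abundant gene of each read a log2 change of -0.10 for Lama1 (laminin alpha 1), -0.12 for Col4a1 (a collagen IV chain whose exons overlap Col4a2 on the other strand), -0.11 for Itgb8 (integrin beta 8), -0.08 for Vcan (versican), 0.05 for Flna (filamin A) and -0.10 for Lrp4 (a receptor for agrin).

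At E13.5, 0 of the 108 passed in the Sox1Cre line with limma, beside 0.924% of all genes (9 unadjusted, edgeR 0, DESeq2 1, and 3 with limma without A1, A10 and A19), with a median of -0.07. In the NestinCre line 0 passed as well, beside 0.0669% of all genes (1 unadjusted, edgeR 0, DESeq2 0). The same genes as above read in the Sox1Cre line -0.40 for Lama1, -0.38 for Itgb8, -0.15 for Col4a1, -0.11 for Flna, -0.11 for Lrp4 and 0.23 for Vcan, none past the test. Dmd, named for its call at E12.5, read -0.48 (limma, adjusted p = 0.112), and -0.55 without A1, A10 and A19 (adjusted p = 0.0468), and in the NestinCre line -0.18 (adjusted p = 0.955).

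From E12.5 to E13.5 in Sox1Cre mutants, 42 of the 108 passed, 9 higher and 33 lower, with a median of -0.23 beside -0.0079 over all genes. Of all genes 25.9% passed, 13.8% as higher and 12.1% as lower. Without A1, A10 and A19 the counts were 10 higher and 23 lower, beside 1724 and 1367 of all genes. In the Xist-high libraries alone 1 passed and in the Xist-low libraries 53, where 294 and 4116 of all 16454 genes passed. Of 8 other laminin chains 4 passed, all lower, among them Lamc3 (-0.88), Lama1 (-0.72) and Lamb2 (-0.51). Lamc3 ranged from 538.5 to 1599 normalized counts in the E13.5 mutants (mean 1143), so its lowest library adds to its change. Of 19 other basement membrane genes 6 passed as lower, including Frem2 (-1.10), Fras1 (-0.69) and Fbln2 (-0.58), and Col4a3 as higher, from a mean of 2.81 normalized counts, under or near the floor, to 12.9. In the E13.5 mutants Frem2 ranged from 492 to 1851 (mean 1499) and Fras1 from 2476 to 5355 (mean 4282). The lowest library thus adds to both changes, which are not given without it. Frem2 and Fras1 encode partners in 1 complex that holds epithelia to their basement membrane. Of 15 other integrin subunits 4 passed: Itgb3 (-1.72) and Itga2b (-1.58), the pair best known from platelets, Itga9 (-0.54) and Itgb4 (0.69).

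Of 15 other matrix ligands of integrins 7 passed, 3 of them higher. These were Tnr, a tenascin whose mean of 4.48 normalized counts at E12.5 was close to the floor of 3 reads (52.5 at E13.5), Tnc, another tenascin (0.89), and Ltbp1 (1.85), a binding protein of latent TGF-beta, and Fbn2, a fibrillin, was among the 4 lower (-0.91). Tnc ranged from 1024 to 3789 at E13.5 (mean 1917) and overlapped E12.5 (652 to 1092), so its highest library weighs heavily in this change. In the dystroglycan complex, with the enzymes that build its sugar chains, 7 of 23 passed as lower, including Sgce, a sarcoglycan (-0.56), and Utrn, utrophin (-0.56, but 0.0086 in Xist-high libraries alone), and 2 as higher, including Dmd (0.63). Of 24 genes of the adhesion machinery on the cytoplasmic side 9 passed as lower and 1 as higher, with Fermt3, a kindlin of blood cells (-1.32), Parvb (-0.83) and Parva (-0.44), which encode parvins, and Zyx, zyxin (-0.40). Of 4 agrin receptors and proteases Dok7 passed as higher, from a mean of 3.92 normalized counts, close to the floor, to values of 8.6 to 19.6. Markers of other cells moved over the same day: 6 of 12 meninges markers passed as lower and 1 as higher (median -0.56), 5 of 9 erythroid markers as lower and 1 as higher (median -1.04), 1 of 12 of endothelium, 1 of 6 of choroid plexus and 0 of 8 of microglia, and their part in these counts was not tested. Of the 8 archicortex markers all passed, 4 higher and 4 lower, the latter including Wnt8b (-1.21), Wnt3a (-1.21) and Lmx1a (-1.09).

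In Sox1Cre controls, where age and sex coincide, 16 of the 108 passed over the same day (7 higher, 9 lower, edgeR 17, DESeq2 20), beside 11.5% of all genes (6.33% higher, 5.17% lower). With Xist as a covariate 0 of the 108 passed, and 0 of all genes. They included Lamb2 (-0.34) as the 1 laminin chain, Itgb3 (-1.99) and Itga2b (-1.65), Fbln1 (-0.46), and Ltbp1 (1.96), Postn (1.16), Thbs1 (-0.70) and Vtn (0.60). The others of the rule were Pomgnt1 (0.21), an enzyme that extends the sugar chain of dystroglycan, and Fermt3 (-0.79), Tln2 (-0.40), Zyx (-0.35) and Tns3 (0.29) of the adhesion machinery. Col4a3 and Dok7 passed as higher from means near the floor, 1.98 and 3.74 normalized counts at E12.5, to 10.8 and 12.2. Of the markers, 6 of 9 erythroid genes passed, all lower, with 2 of 12 of meninges (1 higher, 1 lower), 2 of 12 of endothelium (both higher), 0 of 6 of choroid plexus and 0 of 8 of microglia. Their median changes were -0.97 for erythroid, -0.36 for meninges (10 of 12 below 0), 0.07 for endothelium, 0.75 for choroid plexus and 0.06 for microglia markers. Archicortex markers passed for 4 of 8, among them Wnt8b (-1.10), Wnt3a (-0.83) and Emx2 (-0.22).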

How the data were processed

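RNA was extracted from dissected archicortex with the RNeasy Plus Micro kit, libraries were made with the KAPA mRNA HyperPrep kit and sequenced on a HiSeq 4000. Per the labels and the study's methods, the authors trimmed reads (Trimmomatic 0.36), aligned them to GRCm38 (STAR 2.5.2a), estimated counts per gene (RSEM 1.2.31) and divided them by size factors (DESeq2). The deposited signal is this normalized count, neither logged nor pooled. The strand setting of the counting is not given in the sources used here. Whole reads were recovered from the steps in the values: 100% came out whole in each library within 0.001 reads. Reads carry no molecular identifiers, so the floor of 3 reads is for counting error alone. No pair of replicates agreed within sampling noise.

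Changes were fitted with limma 3.58.1 (R 4.3.3) on log2(value + 1), giving each group its own mean, over all 24 libraries and 16454 genes (10 or more in 4 or more libraries, 18 residual degrees of freedom, eBayes with a trend). The pseudocount of 1 understates changes of low genes. p-values are two-sided and Benjamini-Hochberg adjusted over all genes tested, with a threshold of 0.05. Single genes were also compared by exact permutation over all 70 ways to divide 8 libraries into 4 and 4, whose smallest p is 0.0286. edgeR 4.0.16 and DESeq2 1.42.0 were run on the recovered reads. All were first tested on simulated data. Summaries used Python 3.11.15 with pandas 2.3.3, numpy 2.4.6 and scipy 1.17.1, and plots matplotlib 3.10.9.

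The members and lists were chosen with earlier results of these data known. Genes named are the 9 members, Sox9, up to 4 genes per list with the largest change among those past the threshold (or, where none passed, the most abundant), the most abundant marker of each other cell type, and the 3 genes most correlated with Agrn and with Fn1. Some genes that this rule names are not reported here. Members were tested at E12.5 only, and described in comparisons that hold E13.5 libraries. Lists were described by counts, without a set test. Alternatives were other pseudocounts (0.5, 5), no filter or a mean of at least 100, quantile normalization, the libraries of 1 comparison alone, Xist as a covariate, edgeR, DESeq2 and leaving out each library. Libraries of 1 Xist class, and leaving out A1, A10 and A19 together, were added after seeing the data. Gene positions come from the GENCODE annotation of GRCm38 and windows before starts from RefSeq (GRCm38.p6). No protein sequences were used here.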

Additional observations from a re-analysis of the deposited data

Results flagged for a closer look

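In 5 of the 54 member and group combinations, 1 library lay apart from the other 3 by Dixon's criterion for 4 values, where chance alone marks about 1 in 20. Lamb1 in the E13.5 Sox1Cre mutant A1 was at 2259 normalized counts, below the other 3. Itga5 in the E12.5 Sox1Cre mutant A10 was at 1023, also low. Itgb1 in the E13.5 Sox1Cre control A5 was at 6703, low beside 7111 to 7128 in the other 3. Lamc1 in the NestinCre control A22 was at 7714 and Itgav in the NestinCre mutant A18 at 1562, both high. A1 and A10 are also the libraries with the lowest endothelial and meningeal marker sums of their groups, whose part in these values was not tested.

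The change of Agrn at E13.5 differed between the Cre lines by -0.51 (log2, Sox1Cre minus NestinCre). Every Sox1Cre mutant lay below every Sox1Cre control, and the NestinCre genotypes overlapped. Agrn was chosen for this contrast, so the value is a description.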

How the results depend on the processing

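No paired analysis was possible because the libraries carry running numbers from A1 to A24 and no replicate number shared between groups. Only 4 libraries per group, 3 libraries low in vessel and meningeal markers, and the coincidence of age with sex in Sox1Cre controls limit these results. The cause of the shifts below was not tested, beyond fewer libraries or genes where a setting has fewer.

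At E12.5, 119 genes passed in mutants against controls. The count was 76 with only the libraries of the comparison, 294 with DESeq2, 52 in Xist-high libraries, 220 without A1, A10 and A19, and 50 to 139 leaving out 1 library each (50 without the control A13, 68 without A14, 74 without A16, 75 without A12). At E13.5 in the Sox1Cre line the main count of 152 became 44, 358 and, in Xist-low libraries, 83 under the first 3 of these settings and 505 without A1, A10 and A19, with 90 (without A3) to 510 (without A1) leaving out 1 library each. In the NestinCre line 11 genes passed, against 5 without a filter, 5 with a mean of at least 100, 2 with Xist as a covariate, 5 with edgeR, 37 with DESeq2, 2 in Xist-low libraries, 4 without A1, A10 and A19, and 2 to 7 leaving out 1 library each. The difference between the lines passed in 7 genes, 13 with its own libraries, 95 with DESeq2, 0 in Xist-low libraries, 76 without A1, A10 and A19, and 5 to 144 leaving out 1 library each (144 without A1, 13 without A17). From E12.5 to E13.5, 1892 genes passed in controls, 0 with Xist as a covariate and 794 (without A6) to 2629 (without A5) leaving out 1 library each. In mutants 4263 passed, 2133 with only their own libraries, 294 in Xist-high libraries and 2948 to 4725 leaving out 1 library each.

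Members near 0 changed sign, none of these values past the threshold. At E12.5, Lamb1 read 0.031 with quantile normalization, 0.034 with Xist as a covariate, 0.010 with edgeR, 0.011 with DESeq2 and 0.15 without A1, A10 and A19, and Lamc1 read 0.035, 0.061, 0.00021, 0.00093 and 0.063 in the same order. Itga5 read -0.11 in Xist-high libraries and Itga6 0.023 with quantile normalization. Leaving out 1 library each gave -0.11 to 0.15 for Lamb1, -0.043 to 0.063 for Lamc1, -0.038 to 0.11 for Itga5, -0.037 to 0.022 for Itga6 and -0.022 to 0.056 for Itgav. Over the day in mutants, Itgb1 read 0.013 with quantile normalization, 0.0057 with edgeR, 0.0047 with DESeq2, 0.12 in Xist-high libraries, 0.066 without A1, A10 and A19 and -0.082 to 0.094 leaving out 1 library each. Lamb1 read 0.30 in Xist-high libraries, 0.016 without A1, A10 and A19 and -0.25 to 0.18 leaving out 1 library each, Itga5 0.082 in Xist-high libraries, and Itga6 -0.00026 to 0.054 leaving out 1 library each. Utrn, which passed as lower, read 0.0086 in Xist-high libraries. Over all single genes and alternatives, 1888 values were classed as the same, 187 lost the call, 6 gained it, 5 moved and 41 changed sign, including those printed here. The same meant an unchanged direction and call, except for members in the E13.5 mutant comparisons and in the difference between the lines. There a log2 change was the same if it shifted by less than the residual SD of limma, and moved otherwise. Sign changes there were counted only for members past the threshold, so those of members near 0 are not among the 41. Tallied apart from these, the counts of all genes passing in each comparison were classed as moved in 45 settings and as the same in 77.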
